A study of Homo sapiens with 12 samples.

Results

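The HOX cluster genes were measured in TC32 cells, an established Ewing sarcoma line, and in HCT116 cells, an established colorectal carcinoma line. Members were all genes with a probe annotated, on an Illumina expression array, to a symbol made of HOXA, HOXB, HOXC or HOXD and a number from 1 to 13. There were 29 such genes of 20046 genes named on the array, measured by 36 of its 47322 probes: 2 probes of 1 HOXA gene, 12 of 10 HOXB genes, 13 of 9 HOXC genes and 9 of 9 HOXD genes. HOXA2 was the only HOXA gene with a probe named here, and the other HOXA genes were not analysed here.

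Each line was transfected with siNeg, a control siRNA, or with siPRKDC, an siRNA against PRKDC, the gene of the catalytic subunit of DNA-dependent protein kinase. The dose was 20 nM, RNA was taken after 48 h, and each of the 4 groups had 3 arrays. TC32 cells were grown in RPMI-1640 and HCT116 cells in DMEM, so that line and medium cannot be told apart. All cells of both arms were transfected, each line is a single established line, and nothing in the labels says that replicates came from separate cultures, so the error behind each p-value may be only technical. These are bulk RNA samples, in which fewer cells of a type and less RNA per cell cannot be told apart.

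HOX genes encode homeodomain transcription factors that give cells their position along the body axis. They lie side by side in clusters, and their order along the chromosome follows the order of their domains in the embryo, with low paralogue numbers at the head end and high numbers at the tail end and in the limbs. Genes of the same number in different clusters are paralogues, and the proteins bind DNA together with homeodomain partners of the TALE class, the PBX, MEIS and PKNOX proteins. Adult and tumour cells often keep a HOX pattern that reflects the place their tissue came from.

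The arrays were even in brightness, with a median raw intensity of 72.4 to 74.6, and 15396 to 18153 probes per array had a detection p-value below 0.05. In TC32 the siPRKDC arrays detected fewer probes (15396 to 16216) than the siNeg arrays (16324 to 16603). PRKDC fell in both lines on its brightest probe. Its log2 intensity was 6.60, 6.61 and 6.89 in TC32 with siNeg and 5.21, 5.03 and 5.65 with siPRKDC. In HCT116 it was 7.28, 7.42 and 7.04 with siNeg and 4.48, 4.51 and 4.79 with siPRKDC. The siPRKDC arrays lay below the siNeg arrays in each line, and the fall was 2.65-fold in TC32 (adjusted p = 6.70e-08, limma) and 6.29-fold in HCT116 (adjusted p = 1.38e-10, limma). Of 4 PRKDC probes, 3 were tested, and the 2 dimmer ones also fell in each line, to signals detected on at most 1 of 3 siPRKDC arrays. The lines carried most tested markers of their labels. All 7 tested Ewing sarcoma markers were higher in TC32 than in HCT116 under siNeg, where 29.6% of all probes were higher. NKX2-2, a homeobox target of the Ewing fusion, was detected on 3 of 3 TC32 and 0 of 3 HCT116 siNeg arrays. Of 14 epithelial and colon markers 9 were tested, and 8 of these were lower in TC32, where 32.4% of all probes were lower. CDH1, KRT8 and KRT19 were detected on 0 of 3 TC32 siNeg arrays. KRT20 did not pass the test and was detected on 1 of 3 HCT116 siNeg arrays. CDH17, VIL1, CLDN4, LGALS4 and CDX1 were detected on all 3 arrays of no group. Of 15 probes of blood, endothelial and stromal markers, 0 were detected on all 3 arrays of any group. The summed raw intensity of the 18 epithelial and colon probes was 1273.0 to 1318.6 in TC32 with siNeg and 1293.1 to 1332.5 with siPRKDC. For the 14 Ewing sarcoma probes it was 4759.8 to 5289.0 with siNeg and 5116.1 to 5745.2 with siPRKDC. In HCT116 the epithelial sum was 5031.7 to 5636.7 with siNeg and 5650.3 to 6091.1 with siPRKDC, and the part of these shifts in the HOX results was not tested.

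The first question was which HOX genes each line expressed. A probe was taken as detected in a group where its detection p-value, the share of negative control beads at least as bright, was below 0.05 on all 3 arrays. TC32 expressed more of the HOX probes than HCT116, and the difference in number was largest in the HOXD cluster. In TC32, 18 of 36 probes (50%, 17 genes) were detected with siNeg and 16 (44.4%, 16 genes) with siPRKDC. In HCT116, 11 of 36 probes (30.6%, 10 genes) were detected with either siRNA. Over all probes the shares were 27.2%, 26.6%, 29.5% and 29.1% in the same order of groups.

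**Figure D1:**
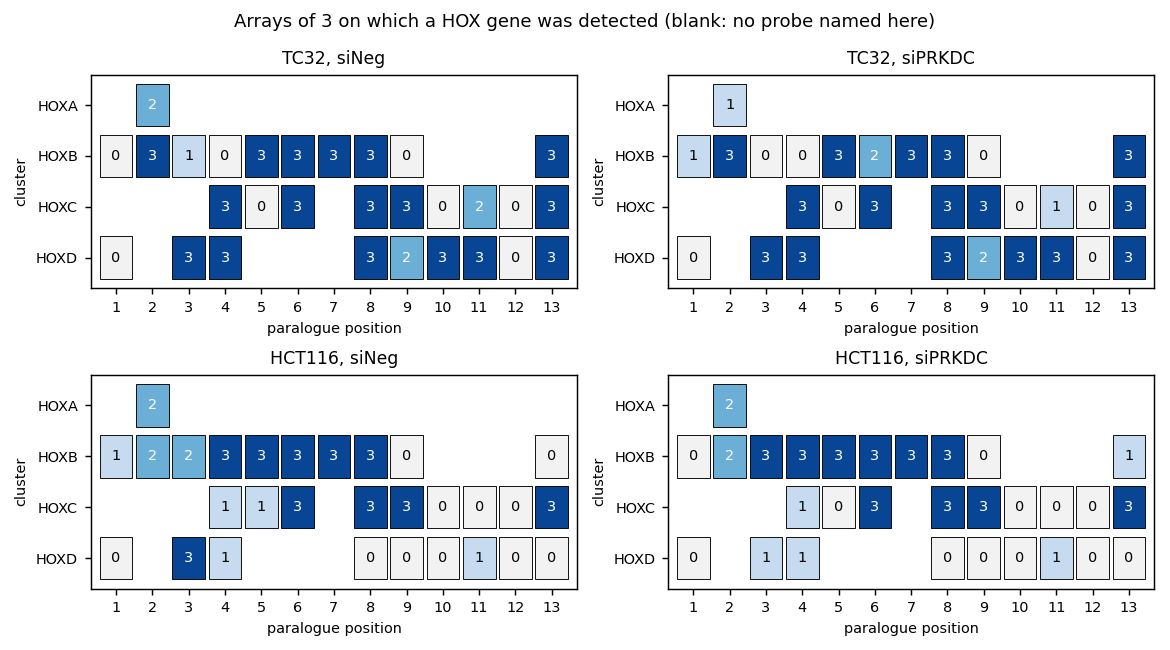
Number of arrays, of 3, on which each HOX gene had a detection p-value below 0.05, in 4 panels for the 4 groups, by cluster (rows) and paralogue position (columns). A gene with several probes is shown by the probe with the most detected arrays, and a blank cell has no probe named here. The HOXD row is mostly at 3 in both TC32 panels and mostly at 0 or 1 in both HCT116 panels.

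By cluster, 6 of 9 HOXD probes were detected in both TC32 groups, against 1 of 9 (HOXD3) in HCT116 with siNeg and 0 of 9 with siPRKDC. HOXB was detected in both lines, on 7 of 12 probes in TC32 with siNeg, 5 with siPRKDC, and 6 and 7 in HCT116. HOXC had 5 of 13 probes detected in both TC32 groups and 4 of 13 in both HCT116 groups, and the 2 HOXA2 probes were detected on all 3 arrays of no group. By position, all 3 probes of paralogue group 13 (HOXB13, HOXC13 and HOXD13) were detected in both TC32 groups and only HOXC13 in HCT116. Positions 9 to 13 together had 6 of 12 probes detected in TC32 and 2 of 12 in HCT116 with either siRNA. Positions 4 to 8 had 10 of 16 in TC32 with siNeg and 8 of 16 in the other 3 groups, and positions 1 to 3 had 2 of 8 in TC32 and 1 of 8 in HCT116. No probe of position 1 or 12 was detected in any group.

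Of the 36 probes, 7 (HOXB5, HOXB7, HOXB8, HOXC6, HOXC8, HOXC9 and HOXC13) were detected in all 4 groups. A further 8 (HOXB2, HOXB13, HOXC4, HOXD4, HOXD8, HOXD10, HOXD11 and HOXD13) were detected in both TC32 groups and in neither HCT116 group, and 1, HOXB4, showed the reverse. HOXB6, with 2 probes, was detected in every group except TC32 with siPRKDC, where its probes reached 2 and 0 of 3 arrays. HOXD3 was detected in every group except HCT116 with siPRKDC (1 of 3 arrays), and HOXB3 only in HCT116 with siPRKDC, with 2 of 3 arrays under siNeg. In all, 20 probes of 19 genes (55.6% of HOX probes, against 35.0% of all probes) were detected in at least 1 group and went into the tests.

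The other 16 probes had log2 intensities between 4.08 and 4.92 on every array. Among these, 7 were detected on no array: HOXB9, HOXC10, HOXC12, HOXD1, HOXD12 and a further probe each of HOXC4 and HOXC6. The remaining 9 were detected on scattered arrays, with HOXD9 on 2 of 3 in each TC32 group and none in HCT116, and HOXC11 on 2 of 3 in TC32 with siNeg and 1 of 3 with siPRKDC. Of the 2 HOXA2 probes, 1 was detected on 2 of 3 arrays in every group except TC32 with siPRKDC (1 of 3). The other HOXA2 probe was detected only on 1 of 3 HCT116 siPRKDC arrays. Probes of the same gene disagreed for HOXC6, where 1 of 4 probes was detected on all arrays. They also disagreed for HOXC4, where 1 of 2 was detected in both TC32 groups, and for HOXB3, where 1 of 2 was detected in HCT116 with siPRKDC. The HOX probes that were tested were low in raw signal and lay on both sides of the median of all tested probes. Their mean raw intensity over the 12 arrays ran from 76.3 to 229.9, where the median of all 16555 tested probes was 99.45, and this low signal limits what a missing change can show.

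The next question was how far HOX levels differed between the lines under the control siRNA. Under siNeg, 11 of 20 tested HOX probes were higher in TC32 and 3 were lower in limma's test at an adjusted p below 0.05, where 62.0% of all 16555 tested probes were called, 29.6% higher and 32.4% lower. Values of the lines did not overlap for 14 of the 20, against 65.4% of all probes. A probe entered the test through a group that detected it, which fixes part of these directions, so the counts are descriptions. The median difference was 0.72 on the log2 scale, against -0.03 over all probes.

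**Figure D2:**
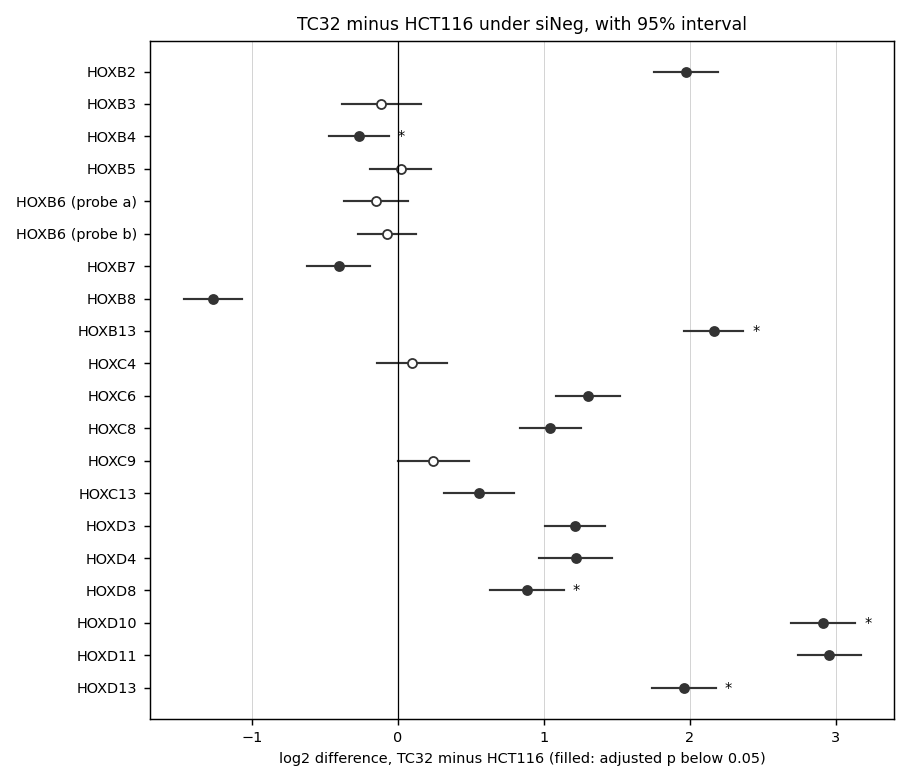
Difference in log2 intensity between TC32 and HCT116 under siNeg for the 20 tested HOX probes, with 95% intervals and 3 arrays per line. Filled points have an adjusted p below 0.05, and an asterisk marks a probe detected on no array of one line, whose point is not a measured size. All 6 HOXD points lie to the right of 0, from 0.88 for HOXD8 to 2.96 for HOXD11.

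HOXD11, which in the mouse patterns the forearm and the kidney together with HOXA11, had 7.26, 7.11 and 7.47 in TC32 and 4.33, 4.22 and 4.42 in HCT116 with siNeg. The lines were far apart, and the probe was detected on only 1 of 3 HCT116 arrays (difference 2.96 ± 0.10 (SE), 7.77-fold, adjusted p = 1.36e-16). HOXD10, a regulator of limb and lumbar motor neuron identity, had 7.08, 7.30 and 6.95 in TC32 and 4.17, 4.31 and 4.09 in HCT116, where it was detected on no array. It was at least 6.73-fold higher in TC32 (adjusted p = 2.84e-16), a bound set against the lowest signal among detected probes of each HCT116 array. By the same bound HOXD13, needed for digit formation, was at least 3.48-fold higher (adjusted p = 3.72e-13), HOXD8 at least 1.60-fold (adjusted p = 1.65e-06) and HOXB13, a tail-end gene expressed in prostate and distal colon, at least 4.09-fold (adjusted p = 1.33e-14). Over 3 arrays in each line, none of these groups overlapped.

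HOXB2, a hindbrain gene, had 6.32, 6.40 and 6.42 in TC32 and 4.26, 4.56 and 4.40 in HCT116, a 3.94-fold difference (adjusted p = 3.16e-13). It was detected on 2 of 3 HCT116 siNeg arrays, so that this size rests on values near background there. HOXC6, HOXC8 and HOXD3 were 2.47-fold, 2.06-fold and 2.32-fold higher in TC32, and HOXC13, known for its part in hair follicles, 1.47-fold. HOXD3 was close to the detection limit in HCT116, at 4.45, 4.45 and 4.46. HOXD4 was also higher (difference 1.22 on the log2 scale, adjusted p = 1.27e-08), but it was detected on only 1 of 3 HCT116 siNeg arrays, so that the size rests on values near background there. HOXB8, which in the mouse keeps myeloid progenitors from differentiating when overexpressed, went the other way. It had 6.46, 6.40 and 6.24 in TC32 and 7.72, 7.58 and 7.61 in HCT116, 2.41-fold lower in TC32 (adjusted p = 1.33e-10). HOXB7 was 1.33-fold lower in TC32 (adjusted p = 0.00166), and HOXB4, a gene known for expanding blood stem cells, was detected on no TC32 array and was at least 1.09-fold lower there (adjusted p = 0.0245, but 0.0600 without background correction, 0.0891 without TC32 siNeg replicate 3 and 0.147 without HCT116 siNeg replicate 1). HOXB5 had 7.44, 7.54 and 7.73 in TC32 and 7.57, 7.46 and 7.62 in HCT116. These ranges overlapped, with a difference of 0.02 (95% interval -0.19 to 0.23), which turned to -0.27 and was called (adjusted p = 0.0271) where arrays were scaled to a common median, a scaling that moved the median of all probes from -0.03 to -0.17.

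The main question of the design was what changed with siPRKDC in each line. In TC32, HOX genes of all 3 detected clusters fell, led by HOXB5, HOXC8 and HOXB13 at 2.01-fold to 2.52-fold, while HOXC4 and HOXD11 rose. Of 20 tested probes 10 fell, 2 rose and 8 were not called in limma's test (adjusted p below 0.05), where 37.9% of all probes were called, 18.7% down and 19.1% up. By cluster, 4 of 9 HOXB probes, 2 of 5 HOXC probes and 4 of 6 HOXD probes fell, and the 2 that rose lay in HOXC and HOXD. The siPRKDC and siNeg values did not overlap for 14 of 20 HOX probes, against 44.7% of all probes. The median change was -0.29 on the log2 scale, against 0.01 over all probes. With 3 arrays against 3, an exact permutation test of a single probe cannot go below p = 0.1.

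**Figure D3:**
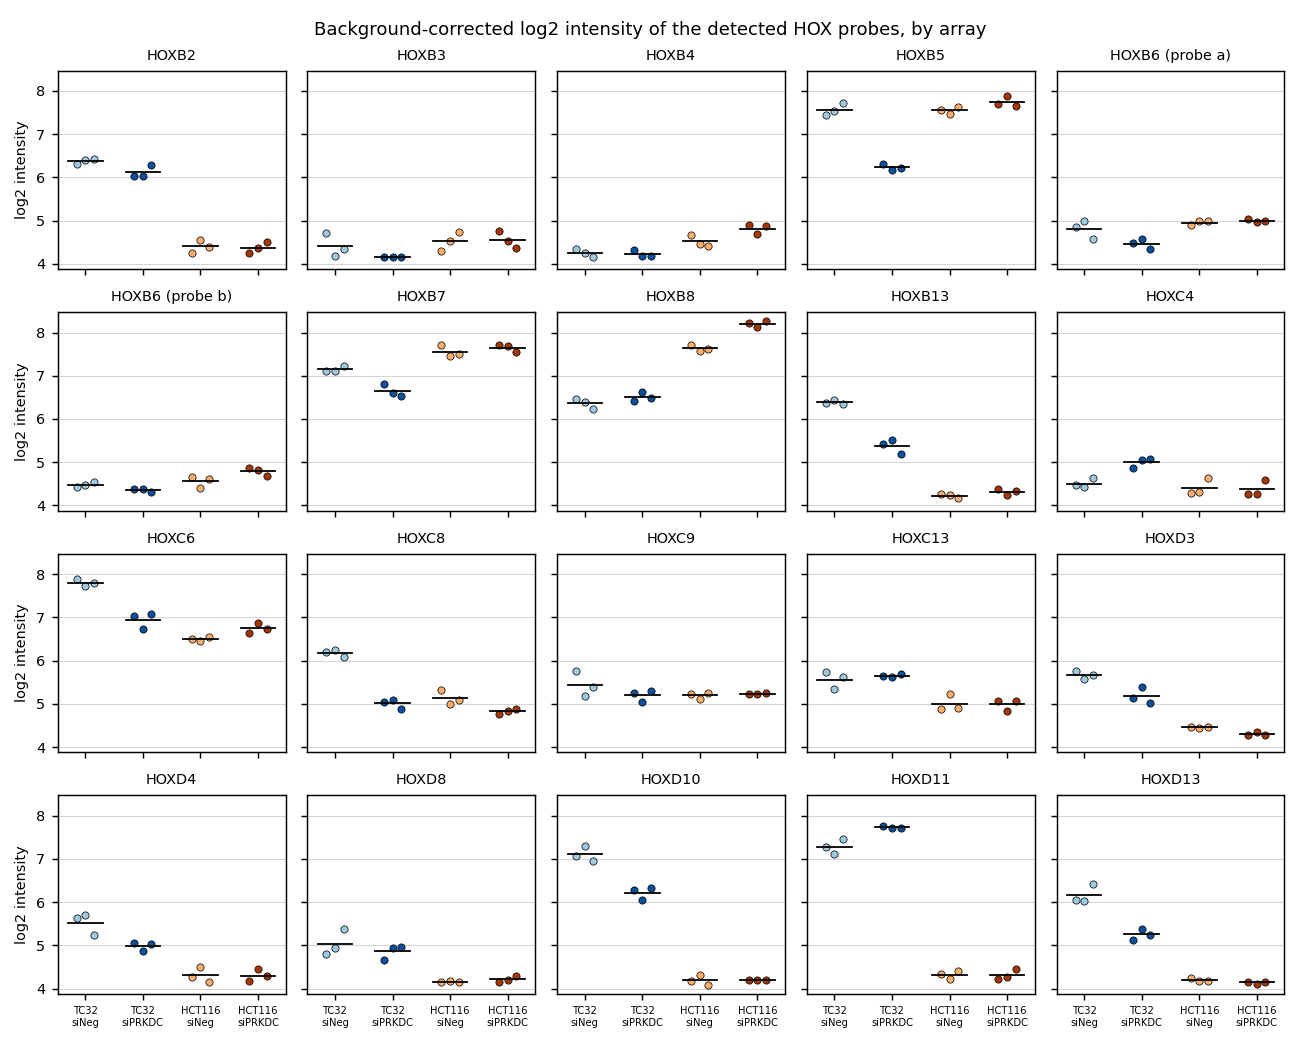
Background-corrected, quantile-normalized log2 intensity of the 20 tested HOX probes on each of the 12 arrays, 1 panel per probe, with a bar at each group's mean of 3 arrays. For HOXB6, probe a is ILMN_1667831 and probe b is ILMN_1768101. In the panels of HOXB5, HOXC8 and HOXB13 the TC32 siPRKDC arrays lie below the TC32 siNeg arrays, while in the HOXB8 panel the HCT116 siPRKDC arrays lie above the HCT116 siNeg arrays.

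In the HOXB cluster, HOXB5, which takes part in lung and gut nerve development, had 7.44, 7.54 and 7.73 with siNeg and 6.30, 6.17 and 6.23 with siPRKDC. The groups were well apart, and the fall was 2.52-fold (log2 change -1.33 ± 0.10 (SE), adjusted p = 1.23e-09). HOXB13 had 6.38, 6.45 and 6.35 with siNeg and 5.43, 5.52 and 5.19 with siPRKDC. It fell 2.01-fold without overlap (log2 change -1.01 ± 0.10 (SE), adjusted p = 4.53e-08) and was still detected on all 3 siPRKDC arrays. HOXB7, a gene overexpressed in several carcinomas, had 7.11, 7.12 and 7.23 with siNeg and 6.82, 6.61 and 6.52 with siPRKDC. It fell 1.42-fold (log2 change -0.50 ± 0.10 (SE), adjusted p = 5.27e-04).

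The HOXB6 probe ILMN_1667831 had 4.84, 4.99 and 4.57 with siNeg and 4.49, 4.59 and 4.34 with siPRKDC. These ranges overlapped, and the fall of 0.33 on the log2 scale (adjusted p = 0.0180) was lost in 6 of 25 alternatives, among them those without siNeg replicate 1 (adjusted p = 0.0561), siNeg replicate 2 (0.111, a change of -0.24) or siPRKDC replicate 3 (0.0888), with a highest adjusted p of 0.122. The other HOXB6 probe had 4.42, 4.47 and 4.55 with siNeg and 4.38, 4.38 and 4.32 with siPRKDC. It was detected on no siPRKDC array, and its change of -0.12 was not called (adjusted p = 0.363). HOXB2 lay just past the threshold, at 6.32, 6.40 and 6.42 with siNeg and 6.04, 6.03 and 6.30 with siPRKDC (log2 change -0.26, adjusted p = 0.0590, called in 6 of 25 alternatives, with an adjusted p of 0.0219 without siPRKDC replicate 3). HOXB8 did not pass the test in TC32 (log2 change 0.15, 95% interval -0.05 to 0.35). HOXB3 was detected on 1 of 3 siNeg and 0 of 3 siPRKDC arrays, so that its TC32 values (-0.25, and -0.37 with an adjusted p of 0.0486 without siNeg replicate 2) compare signals at background. HOXB4 was not above background in either TC32 group.

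In the HOXC cluster, HOXC8, a thoracic gene of the mouse skeleton, had 6.20, 6.23 and 6.08 with siNeg and 5.05, 5.08 and 4.89 with siPRKDC. No value of the groups came close, and HOXC8 fell 2.24-fold (log2 change -1.16 ± 0.10 (SE), adjusted p = 1.01e-08). HOXC6, a gene of the same region that is often raised in prostate cancer, had 7.88, 7.73 and 7.80 with siNeg and 7.04, 6.72 and 7.07 with siPRKDC. It fell 1.82-fold on its detected probe (log2 change -0.86 ± 0.10 (SE), adjusted p = 1.10e-06). HOXC4 rose, on 1 of its 2 probes, from 4.47, 4.43 and 4.62 to 4.86, 5.06 and 5.07. The groups did not overlap, and the rise was 1.41-fold (log2 change 0.49 ± 0.12 (SE), adjusted p = 0.00183). The siNeg values of HOXC4 were close to the lowest signal among detected probes of those arrays, 4.39 to 4.40. The size of its rise thus rests on values near background. Its other probe was detected on no array. HOXC9 (log2 change -0.25, 95% interval -0.49 to -0.00, adjusted p = 0.105) and HOXC13 (0.09, 95% interval -0.15 to 0.33) were not called, and HOXC9 was called without siNeg replicate 2 (-0.38, adjusted p = 0.0164).

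The HOXD cluster changed in both directions among near neighbours. On the chromosome HOXD13, HOXD12, HOXD11, HOXD10, HOXD9, HOXD8, HOXD4, HOXD3 and HOXD1 follow each other. HOXD13 and HOXD10 fell, HOXD11 between them rose, HOXD4 and HOXD3 fell, HOXD8 was not called, and HOXD12, HOXD9 and HOXD1 were not detected. HOXD13 had 6.04, 6.02 and 6.41 with siNeg and 5.12, 5.38 and 5.25 with siPRKDC. It fell 1.87-fold without overlap (log2 change -0.91 ± 0.11 (SE), adjusted p = 6.82e-07). HOXD10 had 7.08, 7.30 and 6.95 with siNeg and 6.27, 6.04 and 6.32 with siPRKDC. It fell 1.86-fold without overlap (log2 change -0.90 ± 0.11 (SE), adjusted p = 7.80e-07).

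HOXD11 had 7.26, 7.11 and 7.47 with siNeg and 7.77, 7.71 and 7.72 with siPRKDC. Each siPRKDC array lay above each siNeg array, and HOXD11 rose 1.37-fold (log2 change 0.45 ± 0.10 (SE), adjusted p = 0.00142). HOXD4, a gene of the hindbrain and neck region, had 5.62, 5.70 and 5.25 with siNeg and 5.05, 4.87 and 5.04 with siPRKDC, a 1.45-fold fall (adjusted p = 0.00124). HOXD3, which in the mouse shapes the first neck vertebrae with HOXA3, had 5.76, 5.57 and 5.67 with siNeg and 5.14, 5.38 and 5.01 with siPRKDC, a 1.40-fold fall (adjusted p = 5.10e-04). In both, the groups did not overlap. HOXD8 had 4.80, 4.94 and 5.38 with siNeg and 4.67, 4.94 and 4.97 with siPRKDC, which overlapped (log2 change -0.18, 95% interval -0.43 to 0.07).

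The promoters of the 3 neighbours that moved in opposite directions in TC32 are shown to set their sequences side by side, from RefSeq on GRCh38.p14, plus strand, 250 bases before to 50 bases after the start of each gene. RefSeq promoters matched 12 of the 29 HOX genes. Capitals mark every match on either strand to GGAA, the core of ETS factor sites, to TATAAA, the TATA box, or to TGATTNAT, a composite site of HOX and PBX proteins, and overlapping matches run together.
HOXD13 at chr2:176092471-176092770: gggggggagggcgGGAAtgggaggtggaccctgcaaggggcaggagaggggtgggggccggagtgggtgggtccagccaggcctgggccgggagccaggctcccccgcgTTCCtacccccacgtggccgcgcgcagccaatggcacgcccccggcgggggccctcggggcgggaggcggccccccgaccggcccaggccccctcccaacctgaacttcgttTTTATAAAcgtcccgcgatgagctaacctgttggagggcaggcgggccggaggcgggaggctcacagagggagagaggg
HOXD11 at chr2:176107030-176107329: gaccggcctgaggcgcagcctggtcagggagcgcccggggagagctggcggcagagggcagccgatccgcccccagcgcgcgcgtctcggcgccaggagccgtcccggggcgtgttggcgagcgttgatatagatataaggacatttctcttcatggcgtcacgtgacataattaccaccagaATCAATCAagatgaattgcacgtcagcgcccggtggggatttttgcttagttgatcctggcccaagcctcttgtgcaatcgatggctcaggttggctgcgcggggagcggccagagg
HOXD10 at chr2:176116528-176116827: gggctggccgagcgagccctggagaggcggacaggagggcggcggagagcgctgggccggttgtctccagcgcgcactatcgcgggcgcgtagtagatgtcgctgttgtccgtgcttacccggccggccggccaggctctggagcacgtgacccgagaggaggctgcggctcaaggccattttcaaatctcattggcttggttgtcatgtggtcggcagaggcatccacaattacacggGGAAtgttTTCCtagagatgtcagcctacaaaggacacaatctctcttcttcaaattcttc

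GGAA or its reverse complement occurred 2 times in the HOXD13 window, 2 times in the HOXD10 window and 0 times in the HOXD11 window, and 95.5% of 35116 RefSeq promoters of this length held it. GGAAGGAA, found in 3.67% of promoters, was in none of the 3. TATAAA was found in HOXD13 alone, in 2 overlapping matches on opposite strands, and in 11.5% of all promoters. TGATTNAT was found 1 time, in HOXD11, on the minus strand, and in 2.82% of all promoters. The windows held 24, 27 and 23 CG dinucleotides in the order HOXD13, HOXD11 and HOXD10, where the median promoter held 14. Among the other genes called in TC32 that had a promoter, HOXC4, which rose, held GGAA 4 times. The same window is listed for HOXC5, which was detected on all 3 arrays of no group. HOXD4 and HOXD3, which fell, held it 4 and 3 times, and TGATTNAT was in none of them. These matches describe letters in these windows, and the arrays did not measure binding there.

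The size of the TC32 changes depended on the background correction. Without it, the log2 change of HOXB5 was -0.91, of HOXC8 -0.54, of HOXB13 -0.52, of HOXD13 -0.44, of HOXD10 -0.58, of HOXC6 -0.64, of HOXD4 -0.22 and of HOXD3 -0.21, while HOXC4 rose by 0.16. In every alternative that tested them, the 9 falls other than that of HOXB6 and both rises stayed called in the same direction.

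In HCT116 the share of HOX probes called with siPRKDC was close to that of all probes, and HOXB8 rose most. Of 20 tested probes 2 rose (HOXB8 and HOXB4), 1 fell (HOXC8) and 17 were not called, where 14.8% of all probes were called, 7.42% up and 7.43% down. Values did not overlap for 8 of 20 HOX probes, against 32.5% of all probes, and the median change was 0.03, against 0.00 over all probes. HOXB8 had 7.72, 7.58 and 7.61 with siNeg and 8.21, 8.14 and 8.26 with siPRKDC. The siPRKDC arrays were all higher, and the rise was 1.48-fold (log2 change 0.57 ± 0.10 (SE), adjusted p = 2.92e-04).

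HOXB4 in HCT116 had 4.68, 4.45 and 4.43 with siNeg and 4.90, 4.68 and 4.87 with siPRKDC, close to the detection limit. Its rise of 0.30 (adjusted p = 0.0489) was lost in 16 of 25 alternatives, up to an adjusted p of 0.186. Among these were the fits without HCT116 siNeg replicate 2 (0.151) or 3 (0.173), without HCT116 siPRKDC replicate 1 (0.161) or 3 (0.144), and without TC32 siNeg replicate 1 or 2 or any TC32 siPRKDC replicate (0.0505 to 0.0544). HOXC8 in HCT116 had 5.32, 4.98 and 5.08 with siNeg and 4.76, 4.84 and 4.88 with siPRKDC. Its fall of 0.30 on the log2 scale (adjusted p = 0.0496) was lost in 17 of 26 alternatives, up to an adjusted p of 0.253 without HCT116 siNeg replicate 1. It was also lost without HCT116 siNeg replicate 3 (0.0795), without each HCT116 siPRKDC replicate (0.0779 to 0.148), and without TC32 siNeg replicate 1 or 2 or TC32 siPRKDC replicate 1 or 2 (0.0524 to 0.0567). The groups of HOXB5 (7.57, 7.46 and 7.62 against 7.70, 7.88 and 7.64) and of HOXC6 (6.50, 6.45 and 6.55 against 6.63, 6.87 and 6.72) did not overlap, with siPRKDC higher, but neither passed the test (log2 change 0.19, adjusted p = 0.228, and 0.24, adjusted p = 0.133). HOXD10, HOXD13 and HOXD8 were not above background in either HCT116 group, so that no change in them could be measured there.

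**Figure D4:**
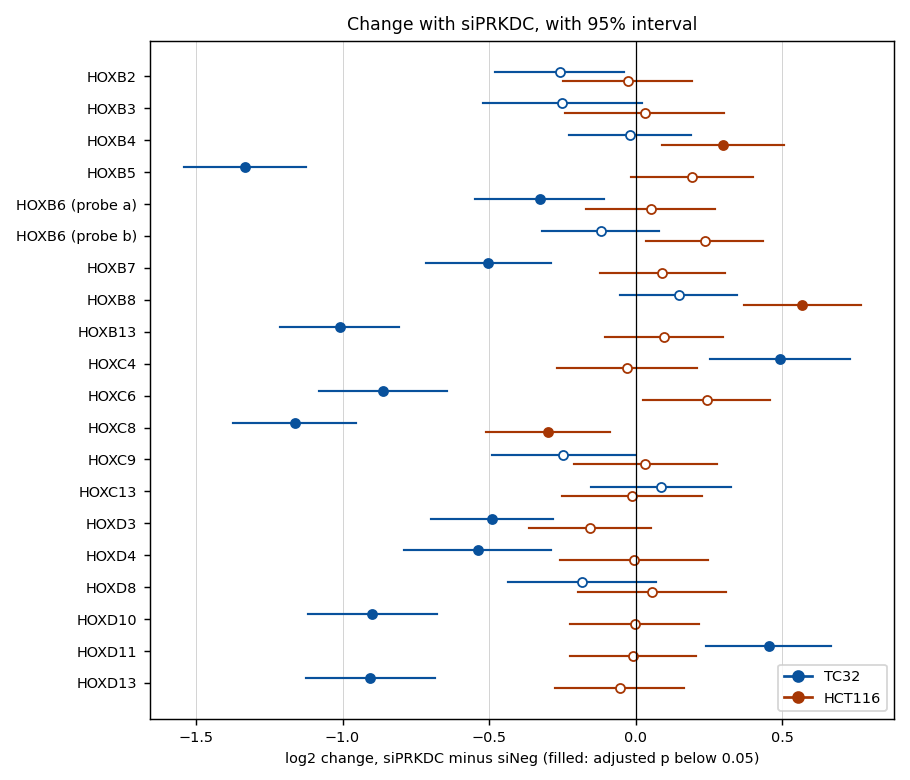
Log2 change with siPRKDC in TC32 (blue) and HCT116 (brown) for the 20 tested HOX probes, with 95% intervals and 3 arrays per group. Filled points have an adjusted p below 0.05. In TC32 the points run from -1.33 for HOXB5 to 0.49 for HOXC4, and in HCT116 from -0.30 for HOXC8 to 0.57 for HOXB8.

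The last question was whether the change differed between the lines, tested as the effect in TC32 minus the effect in HCT116. It was more negative in TC32 for 9 of 20 HOX probes and more positive for 2, where 26.9% of all probes were called, 13.3% more negative and 13.6% more positive. Of the 7 probes detected in all 4 groups, where both effects were measured above background, 5 differed. Among all probes detected on all 12 arrays, 3385 of 10381 differed. HOXB5 differed by -1.52 ± 0.14 (SE) (adjusted p = 8.26e-08), HOXC6 by -1.10 ± 0.15 (adjusted p = 1.02e-05), HOXC8 by -0.86 ± 0.14 (adjusted p = 1.12e-04) and HOXB7 by -0.59 ± 0.15 (adjusted p = 0.00426), all from falls in TC32. HOXB8 differed by -0.42 ± 0.14 (adjusted p = 0.0245), from its rise in HCT116, and this call was lost in 5 of 24 alternatives. Its adjusted p was 0.146 with median scaling, 0.0632 without TC32 siNeg replicate 1, 0.0635 without TC32 siPRKDC replicate 1, 0.0562 without HCT116 siNeg replicate 2 and 0.0568 without HCT116 siPRKDC replicate 3.

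HOXC9 (95% interval -0.62 to 0.06) and HOXC13 (-0.24 to 0.44) did not pass the test of the difference. HOXB13 (-1.10, adjusted p = 4.13e-06), HOXD10 (-0.90, adjusted p = 1.29e-04), HOXD13 (-0.85, adjusted p = 2.11e-04), HOXD4 (-0.53, adjusted p = 0.0242), HOXC4 (0.52, adjusted p = 0.0207) and HOXD11 (0.46, adjusted p = 0.0215) also differed. These 6 were at or near background in HCT116, on 0 or 1 of 3 arrays per group, so that their difference sets a change in TC32 beside a signal near background. For HOXB13, HOXD10, HOXD13 and HOXD4, which fell in TC32, that signal could not have fallen further. The calls of HOXD4, HOXC4 and HOXD11 were lost in 7, 5 and 4 of 23 alternatives. HOXD4 lost its call without TC32 siNeg replicate 1 or 2, TC32 siPRKDC replicate 2, HCT116 siNeg replicate 1 or 3, or HCT116 siPRKDC replicate 2 (adjusted p = 0.0548 to 0.0720). HOXC4 lost it without HCT116 siNeg replicate 3 (0.0726) or HCT116 siPRKDC replicate 1 (0.0581) or 2 (0.0588), and HOXD11 without TC32 siNeg replicate 2 (0.0662), HCT116 siNeg replicate 3 (0.0570) or HCT116 siPRKDC replicate 1 (0.0563). HOXB6 on its first probe and HOXD3 did not pass the test (-0.38, adjusted p = 0.0658, and -0.33, adjusted p = 0.0863), but passed it without TC32 siPRKDC replicate 2 (0.0470 and 0.0245), and HOXB6 also without TC32 siNeg replicate 3 (0.0122). The other HOXB6 probe (-0.35, adjusted p = 0.0583) passed it without HCT116 siNeg replicate 1 (0.0456) or HCT116 siPRKDC replicate 3 (0.0453). On the brightest PRKDC probe, the only one of that gene detected on all 12 arrays, the fall was smaller in TC32, with a difference of 1.25 on the log2 scale (adjusted p = 7.00e-05). The other 2 tested PRKDC probes did not pass the test of the difference (-0.08, adjusted p = 0.761, and -0.19, adjusted p = 0.371), and they were detected on 0 or 1 of 3 siPRKDC arrays in each line.

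Cofactors and neighbours of the HOX genes were read from lists, each gene by its brightest tested probe. Among the TALE cofactors, 6 of 9 were tested, and in TC32 MEIS2 and MEIS1 fell while PBX3 and PKNOX1 rose, with PBX2 and PBX4 not called, where 18.7% of all probes fell and 19.1% rose. MEIS2 had 7.01, 7.10 and 7.08 with siNeg and 6.13, 6.16 and 6.24 with siPRKDC. Its groups were well apart (log2 change -0.88 ± 0.10 (SE), adjusted p = 3.79e-07). MEIS1 had 7.66, 7.62 and 7.36 with siNeg and 6.76, 6.97 and 6.88 with siPRKDC. It also fell without overlap (log2 change -0.67 ± 0.11 (SE), adjusted p = 5.80e-05). PBX3 rose by 0.43 (adjusted p = 8.37e-04) and PKNOX1 by 0.38 (adjusted p = 0.00787, and 0.0530 without siNeg replicate 2). In HCT116, 0 of 6 were called by limma, and MEIS1 was detected there on 2 of 3 siNeg and 1 of 3 siPRKDC arrays. Over the list the median change was -0.04 in TC32 and -0.03 in HCT116.

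**Figure D5:**
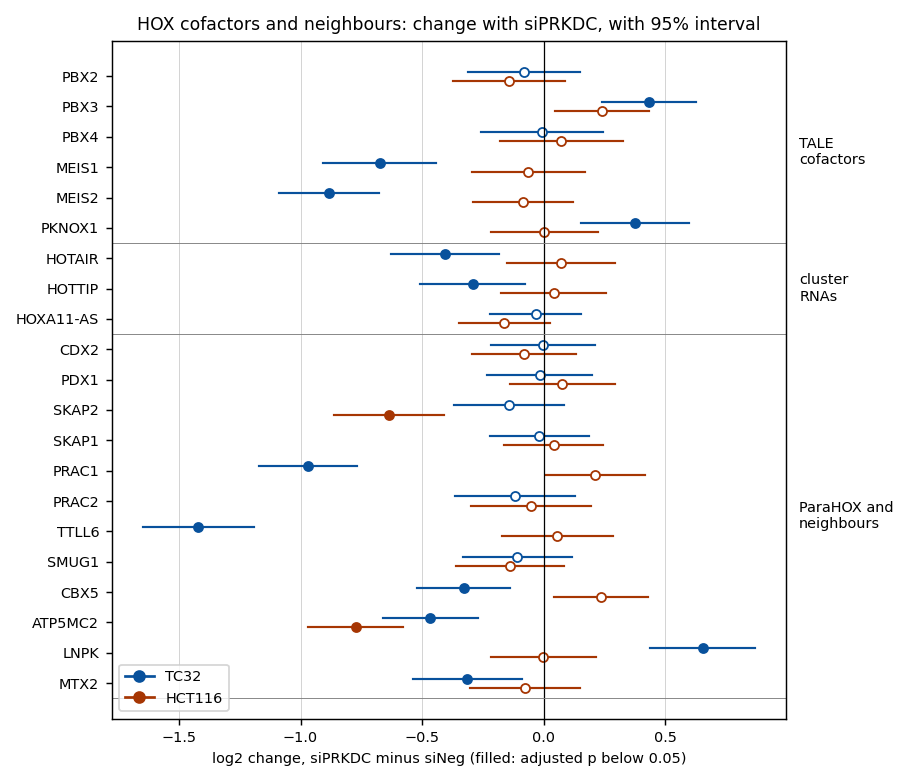
Log2 change with siPRKDC in TC32 (blue) and HCT116 (brown) for the tested TALE cofactors, HOX cluster RNAs, and ParaHOX genes and genes beside the clusters, with 95% intervals and 3 arrays per group. Filled points have an adjusted p below 0.05. In TC32 TTLL6 lies lowest at -1.42 and LNPK highest at 0.65.

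Of 24 non-coding RNAs of the clusters, 8 had a probe and 3 were tested, and in TC32 2 fell and 0 rose, against 18.7% down and 19.1% up over all probes. HOTAIR, a long RNA from the HOXC cluster known to bind Polycomb complexes, had 5.21, 4.79 and 5.19 with siNeg and 4.61, 4.71 and 4.64 with siPRKDC. It fell by 0.41 on the log2 scale on its brighter probe (adjusted p = 0.00460, but 0.0590 with the authors' deposited log2 values), while its second probe did not pass the test (-0.20, adjusted p = 0.190). HOTTIP, from the tail end of HOXA, had 4.48, 4.48 and 4.74 with siNeg and 4.29, 4.33 and 4.19 with siPRKDC, where it was detected on no array. It was at least 1.11-fold lower (adjusted p = 0.0306), a call lost in 11 of 24 alternatives, among them those without siNeg replicate 3 (0.153), siPRKDC replicate 1 (0.0536) or siPRKDC replicate 3 (0.102). HOTTIP entered the test only through the TC32 siNeg group, which fixes part of this direction, so its fall is a description. In HCT116, 0 of the 3 were called by limma.

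Of 18 ParaHOX genes and genes beside the clusters, 12 were tested, and in TC32 5 fell and 1 rose, where 18.7% of all probes fell and 19.1% rose. In HCT116 2 fell and 0 rose, where 7.43% of all probes fell and 7.42% rose. The median change over the list was -0.13 in TC32 and -0.03 in HCT116. PRAC1 lies next to HOXB13 on the side of HOXB9, and TTLL6, a tubulin polyglutamylase, on its other side. TTLL6 had 6.78, 6.46 and 6.29 with siNeg and 5.18, 5.07 and 5.03 with siPRKDC in TC32. It fell without overlap (log2 change -1.42 ± 0.11 (SE), adjusted p = 2.01e-09). PRAC1, a small gene expressed in prostate and distal colon, had 10.80, 10.81 and 10.80 with siNeg and 9.87, 9.68 and 9.94 with siPRKDC. It fell on both its probes (log2 change -0.97 ± 0.10 (SE), adjusted p = 8.30e-08 on the brighter). PRAC1 and TTLL6 were detected on no HCT116 siNeg array, and under siNeg they were at least 86.9-fold and 4.45-fold higher in TC32.

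PRAC2, between PRAC1 and HOXB9, was not called in TC32 (log2 change -0.12, 95% interval -0.36 to 0.13). LNPK, beyond the HOXD13 end of the HOXD cluster, had 5.05, 5.18 and 5.17 with siNeg and 5.79, 5.64 and 5.93 with siPRKDC, and rose by 0.65 (adjusted p = 3.55e-05). MTX2, beyond the other end, had 2 tested probes, which changed by -0.31 (adjusted p = 0.0252) and -0.10 (adjusted p = 0.430). The first call was lost in 4 of 26 alternatives: without siNeg replicate 1 (-0.22, adjusted p = 0.149), without siPRKDC replicate 2 (0.0841), with median scaling (0.0890) and without a filter on dim probes (0.0590). ATP5MC2, a mitochondrial ATP synthase gene near HOXC, fell in both lines on its brighter probe, by 0.47 in TC32 (adjusted p = 4.39e-04) and by 0.77 in HCT116 (adjusted p = 6.51e-06). CBX5, also near HOXC, fell in TC32 by 0.33 (adjusted p = 0.00737, limma), in 26 of 26 alternatives. SKAP2, near HOXA, was the other fall in HCT116 (-0.64, adjusted p = 3.20e-04, limma), but its second probe was not called there (-0.02). PRAC2, MTX2, CBX5 and SKAP2 were chosen after their values were seen.

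Of 19 chromatin regulators of HOX genes, 16 were tested, and in TC32 6 rose and 2 fell, with a median change of 0.19, where 19.1% of all probes rose and 18.7% fell. Among them the Polycomb genes RING1 (0.59, adjusted p = 2.15e-05), CBX2 (0.46, adjusted p = 5.49e-04), JARID2 (0.41, adjusted p = 0.00125) and SUZ12 (0.42, adjusted p = 0.00128) rose, each in 26 of 26 alternatives. The rest of the list is described by genes chosen after their values were seen. The other 2 rises were CTCF (0.33, adjusted p = 0.0165), an insulator protein, and PSIP1 (0.26, adjusted p = 0.0263). CTCF lost its call without siNeg replicate 1 (0.108) or siPRKDC replicate 2 (0.0595). PSIP1 lost it under cyclic loess (0.0512) and without siNeg replicate 1 or 3 or siPRKDC replicate 1 or 2 (0.0525 to 0.0980).

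EZH2, the methyltransferase of Polycomb complex 2, fell on its brightest probe (-0.30, adjusted p = 0.0406) and was not called on its other 2 probes (-0.14 and 0.00). The call was lost in 10 of 26 alternatives, among them those without each of the 6 TC32 arrays or HCT116 siNeg replicate 1 (0.0505 to 0.119). ASH2L, a subunit of MLL complexes, was the other fall (-0.27, adjusted p = 0.0472). It was lost in 13 of 26 alternatives, among them those without TC32 siNeg replicate 2 or 3, TC32 siPRKDC replicate 2 or 3, HCT116 siNeg replicate 1 or 2, or HCT116 siPRKDC replicate 2 or 3 (0.0506 to 0.216). EED and BMI1, also Polycomb genes, were not called (-0.05 and 0.21), though BMI1 was called without siPRKDC replicate 3 (0.0319).

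In HCT116, on the brightest tested probe of each gene, 0 chromatin regulators rose and 2 fell, with a median of -0.12. Over all probes 7.42% rose and 7.43% fell there. CBX2 fell there by 0.42 (adjusted p = 0.00369) and ASH2L by 0.45 (adjusted p = 0.00503). The dimmer tested probe of CBX2 was not called in HCT116 (-0.09, adjusted p = 0.601, limma). Nor was it called for the difference between the lines (0.03) or in TC32 (-0.07), where it was detected on no array. The difference between the lines passed the test for RING1, CBX2 on its brightest probe, CTCF (0.55, adjusted p = 0.00816) and SUZ12. The EZH2 probe with a change of 0.00 in TC32, which is not its brightest, fell in HCT116 by 0.57 (adjusted p = 0.00131). Its difference between the lines was 0.57 (adjusted p = 0.0110). The other 2 EZH2 probes were called in neither of these tests.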

How the data were processed

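RNA was hybridised to 12 Illumina HumanHT-12 arrays. The authors deposited raw bead intensities with a detection p-value per probe, per the file headers, and a table of log2 values whose columns share 1 distribution within each line, so that these were normalized separately by line, as its sorted values show. The submitters' processing notes name GenomeStudio, R 3.0.2 and lumi, with no genome build. Probe names came from the platform annotation (30113 of 47322 probes with 1 gene, 8 with several, 17201 with none), updated through RefSeq.

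Deposited intensities were background-corrected with limma 3.58.1 in R 4.3.3 (neqc, background from the detection p-values, offset 16), quantile-normalized over 12 arrays and taken to log2. Probes with a detection p-value below 0.05 on all 3 arrays of a group were kept (16555). A cell-means model of the 4 groups was fitted over all kept probes with eBayes (8 residual and 13.2 prior degrees of freedom), and p-values were adjusted by Benjamini-Hochberg over all 16555. Each gene's probes stayed separate, and lists were read on the brightest tested probe, with up to 4 genes named by smallest p-value in either line. Some further genes of the lists were named after their values were seen. Members and lists were chosen with earlier results of these data known. Replicates correlated at 0.991 to 0.994. Same-numbered arrays deviated together by correlations of only 0.003 to 0.104, so the numbers were not taken as pairs. The number of arrays limits the precision. Alternatives changed background correction, normalization, filter, model and arrays used.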

Additional observations from a re-analysis of the deposited data

Results flagged for a closer look

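These results were singled out because the change with siPRKDC differed between TC32 and HCT116 in limma's test of the difference itself (TC32 minus HCT116, log2 scale, adjusted p below 0.05). Among HOX genes the difference was -1.52 for HOXB5, -1.10 for HOXB13, -1.10 for HOXC6, -0.90 for HOXD10, -0.86 for HOXC8, -0.85 for HOXD13, -0.59 for HOXB7, -0.53 for HOXD4, -0.42 for HOXB8, 0.46 for HOXD11 and 0.52 for HOXC4. It was 1.25 for PRKDC on its brightest probe, which fell further in HCT116. The other 2 tested PRKDC probes did not pass this test.

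Among cofactors and cluster RNAs it was -0.80 for MEIS2 (adjusted p = 1.99e-04), -0.61 for MEIS1 (adjusted p = 0.00645) and -0.48 for HOTAIR (adjusted p = 0.0221). Among neighbours it was -1.48 for TTLL6, -1.18 for PRAC1 and 0.65 for LNPK. Among chromatin regulators it was 0.88 for CBX2 on its brightest probe, 0.57 for RING1, 0.55 for CTCF and 0.42 for SUZ12. Line markers differed as well: 0.44 for CD99, 0.49 for LIPI, -0.62 for CCND1 and -0.70 for CDH1. CCND1 and CDH1 changed by -0.06 and -0.07 in TC32 and rose by 0.56 and 0.63 in HCT116. MEIS1, HOTAIR, TTLL6, PRAC1 and LIPI were at or near background in HCT116, and CDH1 in TC32. The call of HOTAIR was lost without TC32 siNeg replicate 1 or 3 or HCT116 siPRKDC replicate 2 (adjusted p = 0.0559 to 0.0646), and that of SUZ12 without TC32 siPRKDC replicate 3, HCT116 siNeg replicate 3 or HCT116 siPRKDC replicate 1 (0.0606 to 0.0680). CD99 lost it without HCT116 siPRKDC replicate 1 (0.0532) and LIPI without TC32 siPRKDC replicate 1 (0.0573).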

How the results depend on the processing

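Over the alternatives run for HOX probes, 491 of 505 values kept their direction and their side of the threshold in TC32, 472 of 505 in HCT116, 436 of 465 for the difference between the lines and 436 of 445 for TC32 against HCT116. When each array was left out in TC32, the HOX calls numbered 2 up and 10 to 11 down, with 20 to 22 probes passing the filter. Among the original 20 they numbered 2 up and 9 to 11 down, 9 without siNeg replicate 1. With the filter set to detection on all 12 arrays, 0 of 7 HOX probes rose and 4 fell, and 13 were left untested. Of all probes, 4836 of 10381 were called in TC32 under that filter. In HCT116 the call of 2 rises dropped to 1 without background correction, with an offset of 50, with the authors' deposited log2 values, without a filter, on probes detected on all 12 arrays, with the line fitted alone, with trend and robust settings and with array weights, and ran from 1 to 2 when each array was left out. The single fall there dropped to 0 in the same alternatives except the 12-array filter and array weights, and also under cyclic loess and the replicate block, and ran from 0 to 1 when each array was left out. For the difference between the lines, rises fell from 2 to 1 without background correction, under cyclic loess and without a filter, and to 0 on all 12 arrays, with 5 falls there, and leaving out each array gave 0 to 2 rises and 7 to 10 falls. For TC32 against HCT116, probes detected on all 12 arrays gave 6694 calls of all probes against 10259 and 3 HOX probes higher, and median scaling gave 5 HOX probes lower against 3. Median scaling also turned HOXB5 to -0.27 and CBX2 to -0.25, and moved the share of higher calls to 32.7% of calls between the lines against 47.7%, to 33.5% against 50% in HCT116 and to 62.2% against 50.7% for the difference. The cause of these shifts was not tested. The replicate block gave 6364 calls of all probes in TC32 against 6269, and 2489 against 2458 in HCT116, and apart from the HOXC8 call in HCT116 it ended no HOX call. Slide as a block, the deposited values or within-line quantiles for contrasts across lines, and each line alone for those contrasts were not run, since no slide is named and those values were normalized by line. Low signal limits all HOX values, and a fall below background cannot be seen.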
